A study of Mus musculus with 32 samples.

Results

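The 7 genes described here are Pparg, Lpl, Plin2, Cd36, Tcf21, Thy1 and Fabp5, a set that marks lipid-laden interstitial fibroblasts (lipofibroblasts) and the uptake of fatty acids by the lung. They were taken by name from the annotation of the array, which held 35715 gene names, and they were read by 8 of its 55681 mouse probes. Messenger RNA was measured in lungs of wild-type C57Bl/6J mouse pups at postnatal day (P)5 or P14, after exposure to 21% O2 (normoxia) or 85% O2 (hyperoxia, a model of bronchopulmonary dysplasia) from the first day of life. Every pup also received either a scrambled antimiR or an antimiR against miR-34a, so no group was free of an injected oligonucleotide. Each of the 8 groups held 4 mice and each mouse 1 array, 32 arrays in all. Lungs were perfused until white and homogenized whole, so a difference in a gene can come from fewer cells of a type or from less RNA per cell, which cannot be told apart here.

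Lipofibroblasts lie beside the alveolar type II cells, take up lipid from the blood and hold it in droplets, and are thought to pass it on for surfactant synthesis. Pparg encodes the nuclear receptor that drives the lipid storing programme, and Lpl, Cd36 and Plin2 are among its known targets. Lipoprotein lipase (Lpl) frees fatty acids from circulating triglyceride, Cd36 carries them into the cell, Fabp5 binds them in the cytosol, and Plin2 coats the droplet. Tcf21 is a transcription factor of the lung mesenchyme that marks lipofibroblasts, and Thy1 is a surface protein of the fibroblasts that store lipid. None of the 7 is limited to that cell: alveolar macrophages express Lpl, Pparg, Plin2 and Fabp5, capillary endothelium expresses Cd36, adipocytes express most of them, and T cells and neurons express Thy1.

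The oligonucleotide under test was directed at miR-34a-5p, whose mature sequence is shown (RefSeq, GRCm38.p6, chr4:150068473-150068494, plus strand) with its seed, bases 2 to 8, in capitals.
mmu-miR-34a-5p: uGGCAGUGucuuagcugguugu
The 7-base complement of this seed, CACTGCC, was in 0 of the 8 member probes and in 0.449% of all probes on the array. The probes themselves are 60 bases long and do not cover the transcripts, so this says nothing about the rest of each transcript.

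Lpl was the only member with more than 1 probe. The brighter one, used below unless stated, lies at chr8:71430267-71430326 (mm9, plus strand), and the other lies upstream of it at chr8:71425050-71425109. The upstream Lpl probe is shown because it is an independent reading of Lpl, and the Tcf21 probe (chr10:22537563-22537622, minus strand) because the fall of Tcf21 at P14 rests on it alone. Each has 1 of its reading frames free of stop codons.
Lpl upstream probe: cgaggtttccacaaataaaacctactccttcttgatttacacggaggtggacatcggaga
Tcf21 probe: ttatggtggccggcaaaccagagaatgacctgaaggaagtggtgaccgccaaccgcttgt
The remaining probes lay at chr6:115440213-115440272 for Pparg, which was spotted 10 times on each array, at chr4:86302847-86302906 for Plin2, at chr5:17288600-17288659 for Cd36 and at chr9:43856591-43856650 for Thy1. The array annotation gave no exon for any probe. It placed the Fabp5 probe at chr9:57332244-57332303, whereas RefSeq places the gene on chromosome 3, so signal from a near-identical copy of Fabp5 cannot be told apart from the gene and its values are uncertain.

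RefSeq promoter windows (250 bases before to 50 after a start site) were at hand for Pparg, Plin2, Cd36 and Tcf21. The core motif of nuclear receptor binding, AGGTCA on either strand, occurred in 4 of their 6 windows, against 16.3% of 32851 windows in all. The Pparg, Plin2 and Cd36 stretches are shown, with the motif in capitals, because these genes rose together at P5.
Plin2 (GRCm38.p6, chr4:86670257-86670292, minus strand): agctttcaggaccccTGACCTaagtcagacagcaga
Cd36 (GRCm38.p6, chr5:17836104-17836139, minus strand): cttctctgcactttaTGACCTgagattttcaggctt
Pparg (GRCm38.p6, chr6:115361101-115361136, plus strand): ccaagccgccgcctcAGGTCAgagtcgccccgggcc
The motif is too short to mark a binding site. The full element of PPAR-gamma with its partner RXR, AGGTCANAGGTCA, was in 0 of the 6 windows and in 0.0396% of all.

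All 8 member probes were well above background on all 32 arrays. Levels are given below on the log2 scale, centred so that 0 is the 75th percentile of an array. They are comparable between mice for 1 probe but not between probes. Between 33616 and 40788 probes per array were well above background. Sftpc, Sftpb, Scgb1a1, Ager and Pecam1, which mark lung epithelium and endothelium, were well above background in every mouse. Slides each held 1 age and 1 oxygen level, so oxygen and slide cannot be told apart, and antimiR cannot be told apart from array row. P5 21% O2 scrambled antimiR mouse 4 stood apart in skeletal muscle markers, with a log2 summed level of 6.93 against at most 2.96 in the other arrays. At P14 in 21% O2, adipocyte markers set apart mouse 1 with scrambled antimiR and mice 1 and 4 with antimiR-34a, and the members whose calls changed without them are given with both values.

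**Figure D1:**
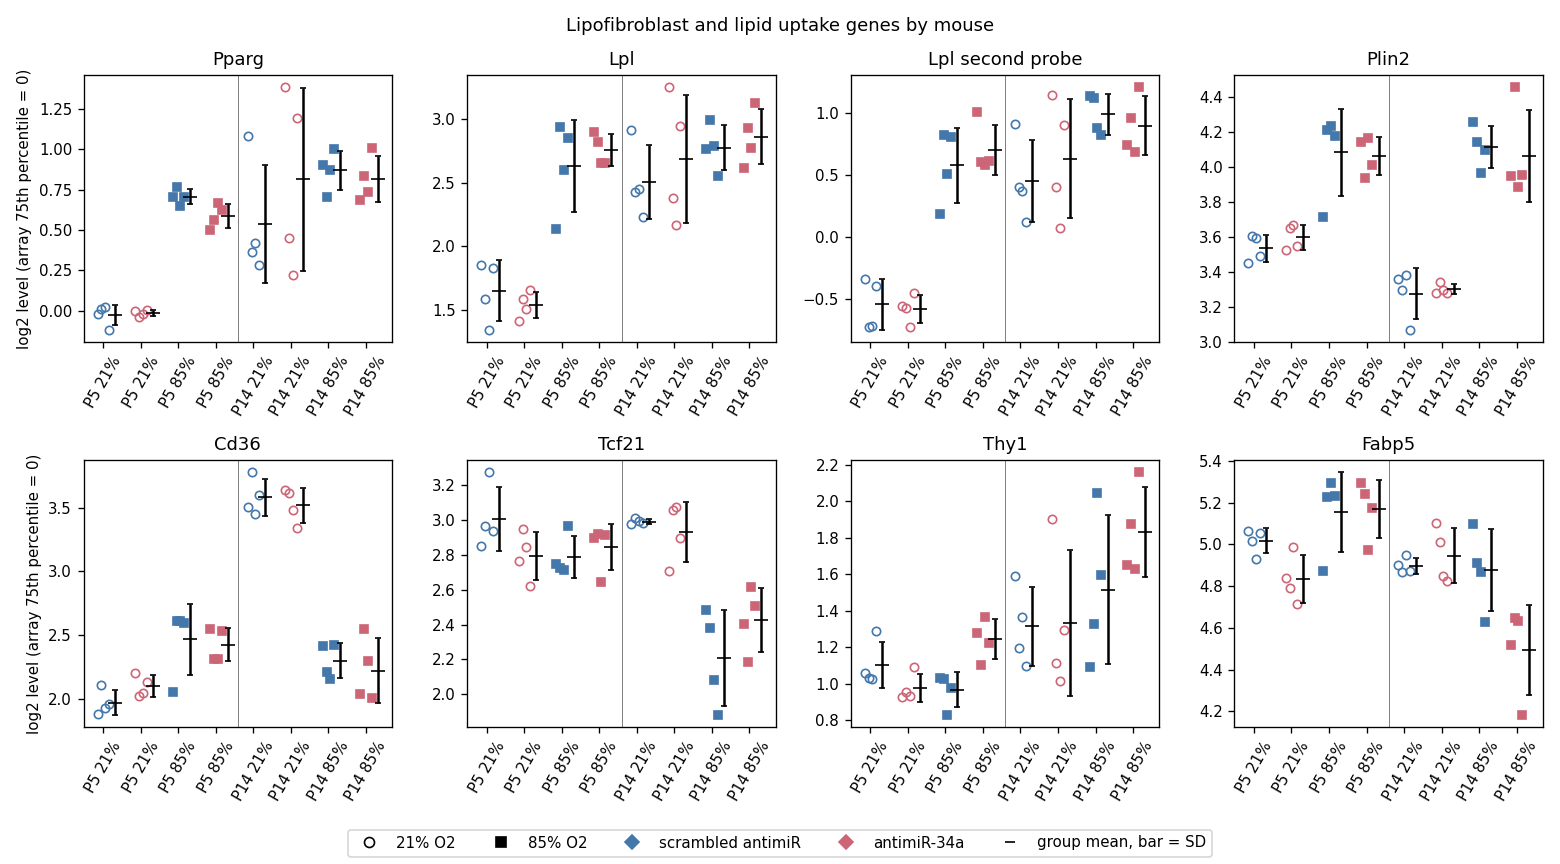
Log2 level of each member (array 75th percentile = 0) in every mouse; open circles are 21% O2, filled squares 85% O2, blue scrambled antimiR, red antimiR-34a, and black marks give the group mean with SD (n = 4); the panel titled Lpl second probe is the upstream Lpl probe. Pparg, Lpl, Plin2 and Cd36 sit higher in 85% O2 at P5, and Cd36 sits far lower in 85% O2 at P14, with group means of 2.30 against 3.58 in mice with scrambled antimiR.

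At P5, Pparg, Lpl, Plin2 and Cd36 were higher in 85% O2 in mice with scrambled antimiR, while Tcf21, Thy1 and Fabp5 did not pass the test. That is 4 of 7 members higher and 0 lower, where 17.4% of the 35984 probes tested were higher and 26.5% lower (limma, Benjamini-Hochberg adjusted p under 0.05). The methods' t-test called 2 members, Pparg and Lpl, and not Plin2 (adjusted p = 0.0551) or Cd36 (adjusted p = 0.0808). The share of all probes called by that second test is not given, so its count of members cannot be set against the limma shares. Of all probes called by limma, 39.7% were higher, and 52.8% under quantile normalization.

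Pparg read -0.02, 0.01, 0.02 and -0.12 in the 4 mice in 21% O2 with scrambled antimiR and 0.71, 0.77, 0.65 and 0.70 in 85% O2. The groups did not overlap. The difference was 0.74 on the log2 scale (SE 0.05, limma adjusted p = 1.8e-07), a 1.66-fold rise. With antimiR-34a the mean rose from -0.02 ± 0.02 (SD, n = 4) to 0.59 ± 0.07, by 0.60 (SE 0.05, adjusted p = 8.67e-07).

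Lpl, the lipase, showed the largest rise of the 7. It read 1.85, 1.58, 1.34 and 1.83 in 21% O2 and 2.14, 2.94, 2.60 and 2.85 in 85% O2, with no overlap. The rise was 0.98 (SE 0.15, limma adjusted p = 0.000182), and 1.22 (SE 0.15, adjusted p = 2.44e-05) in mice given antimiR-34a. The upstream probe gave 1.12 (SE 0.15, adjusted p = 3.53e-05) and 1.28 (SE 0.15, adjusted p = 9.61e-06), so both probes carried the call.

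Plin2, the droplet coat protein, read 3.45, 3.61, 3.60 and 3.49 in 21% O2 and 3.71, 4.21, 4.24 and 4.18 in 85% O2, a rise of 0.55 (SE 0.10, limma adjusted p = 0.000689). Cd36, the fatty acid translocase, read 1.88, 2.11, 1.93 and 1.96 in 21% O2 and 2.05, 2.61, 2.61 and 2.60 in 85% O2, a rise of 0.50 (SE 0.12, adjusted p = 0.00321). In both genes mouse 1 of 85% O2 lay below the other 3, and for Cd36 it fell inside the range of the mice in 21% O2. Without that mouse the rises were 0.67 for Plin2 and 0.64 for Cd36. With antimiR-34a the rises were 0.47 (SE 0.10, adjusted p = 0.00198) and 0.32 (SE 0.12, adjusted p = 0.0318), without overlap between the groups. The Cd36 call with antimiR-34a was lost in 5 of 8 fits that left out 1 array.

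Tcf21 lay between 2.85 and 3.27 in 21% O2 and between 2.72 and 2.97 in 85% O2, a difference of -0.22 (95% CI -0.44 to 0.00) with adjusted p = 0.0991 (limma). Thy1 lay between 1.03 and 1.29 against 0.83 and 1.03, a difference of -0.14 (adjusted p = 0.168). In mice given antimiR-34a, Thy1 rose by 0.27 (SE 0.08, adjusted p = 0.0118) and Fabp5 by 0.34 (SE 0.10, adjusted p = 0.0102), whereas with scrambled antimiR the Fabp5 difference was 0.14 (adjusted p = 0.26), and 0.23 (adjusted p = 0.0335) without mouse 1 of 85% O2. That made 6 of 7 members higher with antimiR-34a and 0 lower, against 17.1% and 29.5% of all probes (36.8% of all calls higher, and 49.1% under quantile normalization). The difference between the antimiR arms did not pass the test for any member, as given below. In the nerve and pericyte list, Cspg4 rose by 0.50 at P5 with antimiR-34a. Stmn2 (-0.75), Rbfox3 (-0.56), Snap25 (-0.55) and Kcnj8 (-0.44) fell, while Tubb3, Notch3 and Rgs5 did not pass. Their part in the rise of Thy1 was not tested.

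**Figure D2:**
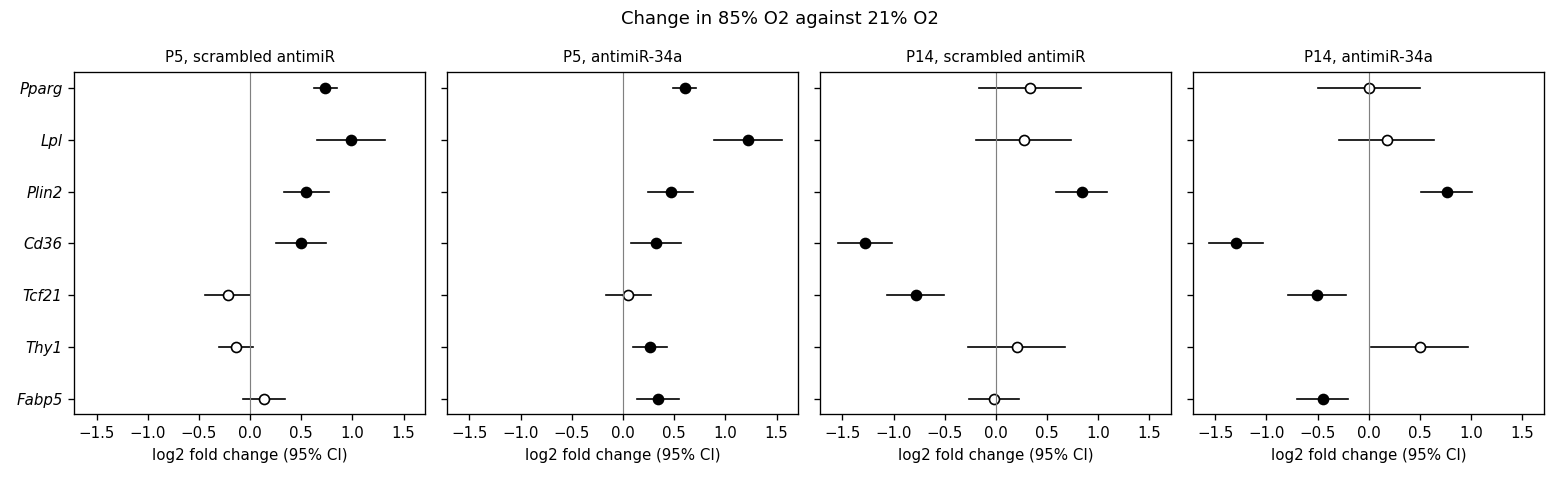
Log2 fold change of each member in 85% O2 against 21% O2 in the 4 comparisons of oxygen, with 95% confidence intervals (4 mice per group); filled points passed an adjusted p of 0.05 and open points did not. Cd36 lies at 0.50 at P5 and at -1.28 at P14 in mice with scrambled antimiR.

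Alveolar macrophage markers changed in these same lungs. Of 15 measured, 5 were higher in 85% O2 at P5 and 4 lower with scrambled antimiR (median -0.20, all probes -0.07), where 17.4% of all probes were higher and 26.5% lower. Marco, a scavenger receptor, rose by 1.83 (SE 0.24, limma adjusted p = 3.2e-05), Cd68, a lysosomal protein of phagocytes, by 1.19 (adjusted p = 3.64e-05), and Atp6v0d2, a proton pump subunit, by 1.07 (SE 0.15, adjusted p = 5.69e-05). Siglecf, a lectin of resident alveolar macrophages, fell by 0.62 (SE 0.22, adjusted p = 0.033, median of its 2 probes -0.17), Ear2 fell by 0.50 and Krt79 fell by 0.39. Without the mouse high in skeletal muscle markers 5 of the list were higher and 3 lower. The log2 summed level of the 15 markers ran from 5.24 to 5.48 in 21% O2 and from 5.29 to 5.90 in 85% O2 with scrambled antimiR, and without overlap from 5.14 to 5.40 and from 5.76 to 6.13 with antimiR-34a. The mouse with low Plin2, Cd36 and Lpl in 85% O2 also had the lowest Marco (3.05 against 4.00 to 4.09) and Cd68 (2.06 against 2.58 to 2.90) of its group. This is 1 mouse and 2 of the 15 markers, both among the 5 that rose, and the markers that fell are not given for it. No source of the rises can be read from it. The part of macrophages in the rise of Lpl, Pparg and Plin2 was not tested.

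Of 25 genes of lipid droplets and triglyceride turnover, 12 were higher and 3 lower at P5 (median 0.21, all probes -0.07), where 17.4% of all probes were higher and 26.5% lower. Lpin1, a phosphatidate phosphatase, rose by 1.04 (SE 0.17, limma adjusted p = 0.000198), Bscl2 (seipin, which shapes new droplets) by 0.77 (SE 0.17, adjusted p = 0.00212) and Mogat1, an acyltransferase, by 1.30 (SE 0.34, adjusted p = 0.00669), the last being well above background in 1 of 4 mice in 21% O2 and in all 4 in 85% O2. Cidec, which fuses droplets in adipocytes, fell by 2.80 (SE 0.21, adjusted p = 2.31e-07), Fitm1, a droplet protein of muscle, fell by 2.30, being well above background in 2 of 4 mice in 85% O2, and the lipase Mgll fell by 0.16, although the median of the 4 Mgll probes was 0.01. Without the mouse high in skeletal muscle markers Fitm1 fell by 1.52 (adjusted p = 0.0172) and the Mgll call was lost (adjusted p = 0.0974).

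In the list of lipid uptake and the lipase system, 7 of 28 genes tested were higher and 4 lower (median 0.00), where 17.4% of all probes were higher and 26.5% lower. Angptl4, a secreted inhibitor of Lpl and a PPAR target, rose by 0.74 (SE 0.10, limma adjusted p = 5.71e-05), as did Apoe (0.53) and Lrp1 (0.43; median of its 2 probes 0.13), a ligand and a receptor in lipoprotein clearance. Fabp1 was not well above background in any of the 4 mice in 85% O2 and was at least 5.99-fold lower there (adjusted p = 0.0389, and 0.0667 without the mouse high in skeletal muscle markers). The brain type Fabp7 fell by 0.59 and Scarb1, a lipoprotein receptor, fell by 0.50 (median of its 2 probes -0.18). Gpihbp1, the endothelial anchor of Lpl, differed by -0.02 (adjusted p = 0.853) with scrambled antimiR and fell by 0.48 (adjusted p = 0.00037) with antimiR-34a. A test of the difference between the arms is not given for this gene.

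Partners and targets of Pparg gave 8 higher and 2 lower of 26 tested (median 0.11), where 17.4% of all probes were higher and 26.5% lower. The coactivator Ppargc1a rose by 1.04 (SE 0.16, limma adjusted p = 0.000128) and Pdk4, a kinase that spares glucose, by 0.83 (SE 0.21, adjusted p = 0.00517). Rxrg, a minor partner of Pparg, fell by 0.77 (adjusted p = 3e-05) and the Mediator subunit Med1 fell by 0.24, although its 4 probes disagreed (median 0.13).

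Of 27 genes of the lipofibroblast axis other than the members, 4 were higher and 10 lower at P5 (median -0.13), where 17.4% of all probes were higher and 26.5% lower. Pdgfra, a receptor of lipofibroblast and myofibroblast precursors, fell by 1.26 (SE 0.07, limma adjusted p = 1.23e-08), Fgf10, a growth factor of the lung mesenchyme, by 0.56 (SE 0.09, adjusted p = 0.000158) and Lepr by 0.67 (SE 0.22, adjusted p = 0.0225; median of its 4 probes 0.07). Pth1r, the receptor through which epithelial parathyroid hormone related protein induces Pparg, fell by 0.35 (SE 0.08, adjusted p = 0.00246), and the ligand Pthlh did not pass the test (0.38, adjusted p = 0.221). The carboxylesterase Ces1d rose by 0.74 (SE 0.08, adjusted p = 6.74e-06) and the collagen Col13a1 by 0.51. Ces1g was at least 2.05-fold higher (adjusted p = 9.81e-08), being well above background in no mouse in 21% O2. Among 11 relatives and targets of Tcf21, 2 were higher and 5 lower; Tcf15 fell by 1.47 (adjusted p = 2.87e-06), Twist1 by 1.32 and Twist2 by 0.76, Foxf1 rose by 0.33 and Tcf12 by 0.26 (median of its 2 probes -0.03). Of 10 myofibroblast genes, 0 were higher and 7 lower (median -0.41), led by Lgr6 and Cnn1 (each -0.60) and Aspn (-0.54). With antimiR-34a, 0 were higher and 6 lower (median -0.33), led by Aspn (-0.80, adjusted p = 0.000326) and Tgfbi (-0.77, adjusted p = 8.5e-07), while Lgr6 (-0.30, adjusted p = 0.139) and Cnn1 (-0.35, adjusted p = 0.211) did not pass. The test of the difference between the antimiR arms called 0 of the 10. Without the mouse high in skeletal muscle markers, a choice made after the values were seen, the calls of Cnn1 (-0.41, adjusted p = 0.13), Foxf1 (0.24, adjusted p = 0.075) and Tcf12 (0.22, adjusted p = 0.0718) were lost, leaving 0 higher among the relatives of Tcf21.

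**Figure D3:**
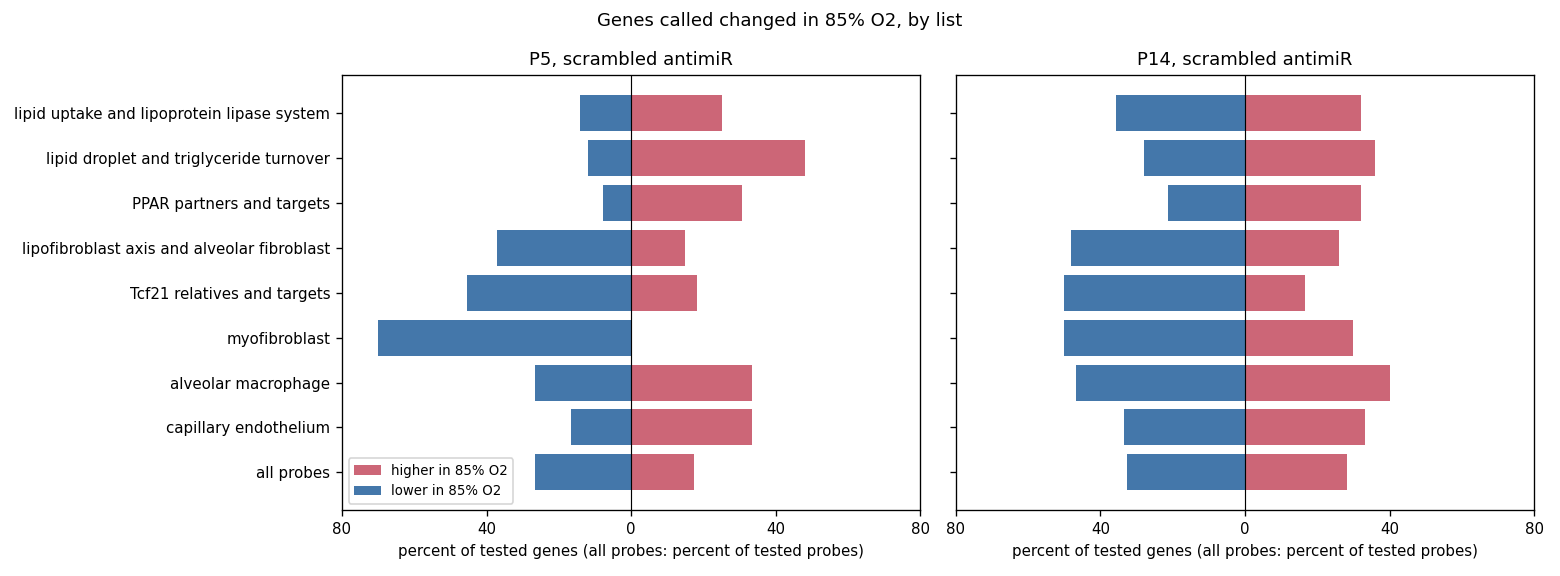
Percent of the tested genes of each list called higher (red, right of 0) or lower (blue, left of 0) in 85% O2 in mice with scrambled antimiR, with all tested probes in the bottom bar; members are left out of the lists and there is no error bar because each bar is a share of genes. At P5 the droplet list shows 12 of 25 genes higher, whereas the myofibroblast list shows 0 of 10 higher and 7 lower.

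By P14 the picture had split. Plin2 was still higher in 85% O2, Cd36 and Tcf21 were now lower, and Pparg and Lpl no longer passed the test. With scrambled antimiR this was 1 member higher and 2 lower of 7, where 28.2% of the 38458 probes tested were higher and 32.7% lower. Of all probes called, 46.3% were higher, and 62.1% with normexp background correction.

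Cd36 read 3.50, 3.78, 3.45 and 3.60 in 21% O2 and 2.41, 2.21, 2.16 and 2.42 in 85% O2, with no overlap. It fell by 1.28 (SE 0.12, limma adjusted p = 1.34e-06), to 0.41 of the normoxic level. With antimiR-34a it read 3.64, 3.62, 3.48 and 3.34 against 2.04, 2.54, 2.30 and 2.01, and fell by 1.30 (SE 0.12, adjusted p = 1.09e-06). Gpihbp1 fell in the same mice by 1.38 (SE 0.13, adjusted p = 1.57e-06) and by 1.63 (SE 0.13, adjusted p = 3.4e-07). Of 12 capillary markers, 4 were higher and 4 lower with scrambled antimiR (median -0.15, all probes -0.07), where 28.2% of all probes were higher and 32.7% lower. Cldn5 rose by 0.85 and Aplnr fell by 1.79. The log2 summed level of the 12 markers ran from 7.61 to 7.71 in 21% O2 and from 7.91 to 7.94 in 85% O2. Their part in the fall of Cd36 was not tested.

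Tcf21 was tight in 21% O2, at 2.98, 3.01, 3.00 and 2.98, and read 2.48, 2.38, 2.08 and 1.88 in 85% O2. It fell by 0.78 (SE 0.13, limma adjusted p = 0.00016), and by 0.51 (SE 0.13, adjusted p = 0.0037) with antimiR-34a, without overlap in either arm. Plin2 read 3.36, 3.30, 3.38 and 3.07 in 21% O2 and 4.26, 4.14, 3.97 and 4.10 in 85% O2, a rise of 0.84 (SE 0.12, adjusted p = 3.31e-05). With antimiR-34a the Plin2 rise was 0.76 (SE 0.12, adjusted p = 6.26e-05), and 1 mouse in 85% O2 stood at 4.46 while the other 3 ran from 3.89 to 3.96. Without it the rise was 0.63.

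Pparg varied widely among the P14 mice in 21% O2, with an SD of 0.37 with scrambled antimiR and 0.57 with antimiR-34a (n = 4 each) against 0.06 and 0.02 at P5. It read 1.08, 0.36, 0.42 and 0.28 with scrambled antimiR and 1.39, 0.45, 0.22 and 1.20 with antimiR-34a, against 0.90, 0.70, 0.87 and 1.00, and 0.68, 0.84, 0.74 and 1.01, in 85% O2. The difference was 0.33 (95% CI -0.17 to 0.84, limma adjusted p = 0.231) with scrambled antimiR and 0.00 (95% CI -0.50 to 0.51, adjusted p = 0.993) with antimiR-34a. Lpl read 2.91, 2.43, 2.45 and 2.23 in 21% O2 and 2.77, 2.99, 2.79 and 2.55 in 85% O2 with scrambled antimiR, and mouse 1 in 21% O2 was again the highest of its group. With antimiR-34a it read 3.25, 2.38, 2.17 and 2.94 in 21% O2 and 2.62, 2.93, 2.77 and 3.13 in 85% O2. Its differences were 0.27 (adjusted p = 0.292) and 0.18 (adjusted p = 0.486). The upstream probe gave 0.54 (SE 0.22, adjusted p = 0.0466) with scrambled antimiR, a call that was lost in 7 of 8 fits that left out 1 array, and 0.27 (adjusted p = 0.295) with antimiR-34a.

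The 3 mice with the highest Pparg and Lpl in 21% O2 were the 3 with the highest adipocyte markers. The log2 summed level of 13 adipocyte markers was 6.37 in mouse 1 with scrambled antimiR, and 6.96 and 6.45 in mice 1 and 4 with antimiR-34a, while the other 5 mice in 21% O2 ran from 3.11 to 4.49. Cfd, an adipokine, read 3.49, 3.60 and 3.80 in the 3 mice and from -0.77 to 1.02 in the other 5. Thy1 read 1.59, 1.90 and 1.30 in the 3 mice and from 1.01 to 1.37 in the other 5. In 85% O2 the sums ran from 1.70 to 1.86 with scrambled antimiR, where Cfd and Adipoq were not well above background in any mouse. With antimiR-34a they ran from 1.75 to 2.31 in 3 mice, and mouse 4 was higher, with Cfd at 0.19 and the highest Pparg (1.01) and Lpl (3.13) of its group. At P5 the sums ran from 1.21 to 2.72. Of 12 adipocyte genes tested at P14, 0 were higher and 10 lower in 85% O2 with scrambled antimiR, and 1 was higher and 11 lower with antimiR-34a. The shares of all probes in these arms were 28.2% and 27.6% higher and 32.7% and 37.9% lower. The adipocyte counts were the same without the 3 mice, and the median log2 difference went from -4.03 to -3.09 and from -5.08 to -3.71.

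Leaving out those 3 arrays, a choice made after the values were seen, gave calls for Pparg and Lpl at P14. All 3 were in 21% O2: mouse 1 with scrambled antimiR, and mice 1 and 4 of the 4 with antimiR-34a. They held the highest Pparg and Lpl of their groups, so leaving them out was bound to raise these differences. The calls below are therefore no separate support for a rise. Pparg was then higher in 85% O2 by 0.52 (SE 0.10, limma adjusted p = 0.0018) with scrambled antimiR and by 0.48 (SE 0.12, adjusted p = 0.0051) with antimiR-34a. Lpl was higher by 0.41 (SE 0.14, adjusted p = 0.0269) and by 0.59 (SE 0.16, adjusted p = 0.00763), and on the upstream probe by 0.69 (adjusted p = 0.00266) and 0.66 (adjusted p = 0.00652). The falls of Cd36 (-1.31 and -1.33) and Tcf21 (-0.79 and -0.64) and the rise of Plin2 (0.87 and 0.74) kept their calls without them. Members called went from 3 to 5 with scrambled antimiR (3 higher, 2 lower) and from 4 to 7 with antimiR-34a (4 higher, 3 lower), where 24.9% and 22.9% of all probes were higher and 30% and 34.6% lower in the same fits. The remaining 5 mice in 21% O2 still had marker sums above 3.11, higher than any in 85% O2, and the part of adipocytes in these differences was not tested. Heart muscle markers, from a tissue rich in Lpl and Cd36, had log2 sums of 6.75 to 7.55 in 21% O2 and 5.16 to 6.42 in 85% O2 with scrambled antimiR at P14, and 5.71 to 7.89 against 4.37 to 5.97 at P5. The P5 ranges with scrambled antimiR overlapped, and those with antimiR-34a overlapped at both ages. The latter were 5.63 to 8.24 against 4.61 to 6.92 at P14, and 5.85 to 6.63 against 4.76 to 6.01 at P5.

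**Figure D4:**
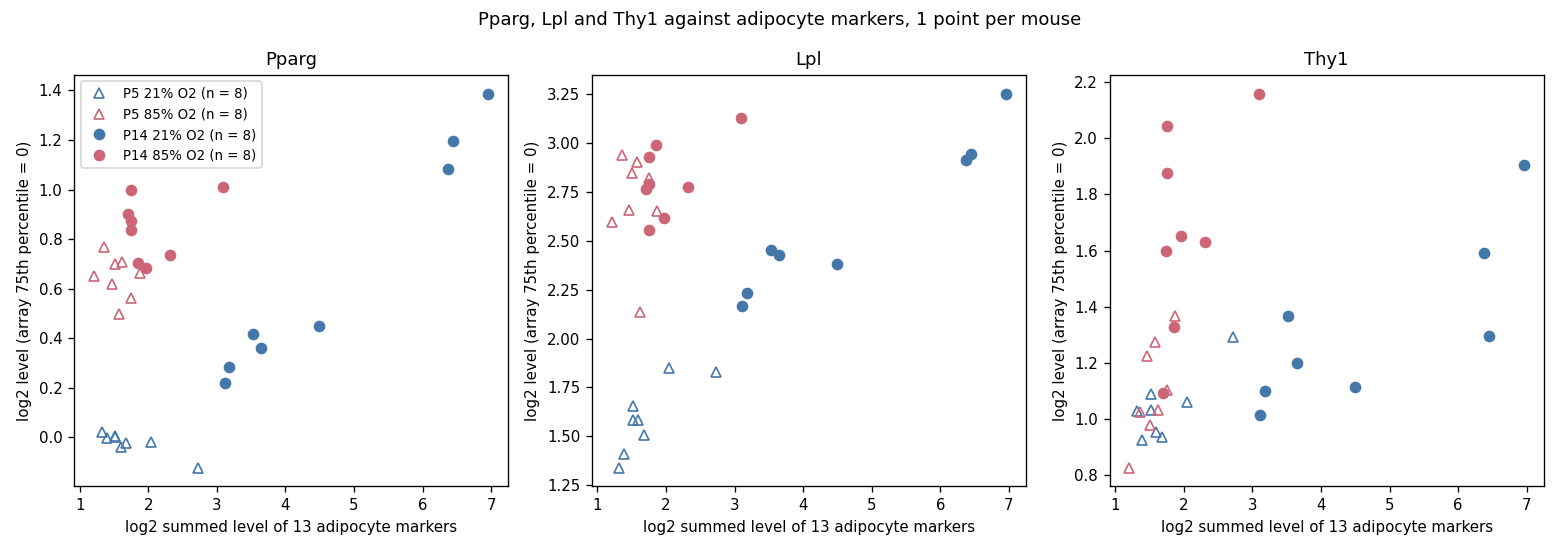
Log2 level of Pparg, Lpl and Thy1 (vertical axis, array 75th percentile = 0) against the log2 summed level of 13 adipocyte markers (horizontal axis), 1 point per mouse, triangles P5 and circles P14, blue 21% O2 and red 85% O2 (8 mice each). The 3 P14 mice in 21% O2 with sums of 6.37 to 6.96 hold the highest Pparg and Lpl of their oxygen level.

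Thy1 and Fabp5 gave no call at P14 with scrambled antimiR, with differences of 0.20 (adjusted p = 0.443) and -0.02 (adjusted p = 0.895) by limma. With antimiR-34a, Fabp5 fell by 0.45 (SE 0.11, adjusted p = 0.0033), from a range of 4.82 to 5.10 to one of 4.18 to 4.65, and Thy1 differed by 0.50 (95% CI 0.03 to 0.97, adjusted p = 0.0603). Without the 3 mice high in adipocyte markers the Thy1 difference was 0.77 (adjusted p = 0.0155), and without antimiR-34a mouse 1 of 21% O2 alone it was 0.69 (adjusted p = 0.00943). Thy1 is also made by T cells and neurons. The log2 summed level of 12 thymus and T cell markers ran from 3.09 to 3.41 in 21% O2 and from 2.21 to 2.94 in 85% O2 with scrambled antimiR, and from 2.99 to 3.57 and 2.11 to 2.68 with antimiR-34a. The same sum over 8 nerve and pericyte genes ran from 5.56 to 6.89 in 21% O2 and from 4.79 to 4.90 in 85% O2 with scrambled antimiR, and from 5.79 to 7.05 and 4.59 to 4.84 with antimiR-34a. Of these genes, 2 were higher and 4 lower with scrambled antimiR, where 28.2% of all probes were higher and 32.7% lower. The neuronal Snap25 fell by 2.17 (SE 0.38, adjusted p = 0.000252), whereas the neuronal Tubb3 rose by 1.22 (adjusted p = 0.0258). The pericyte genes went both ways, with Cspg4 at 1.14 (adjusted p = 1.16e-08) and Kcnj8 at -1.12 (adjusted p = 0.000135). With antimiR-34a 1 was higher and 5 lower, with Snap25 at -3.31 (adjusted p = 6.01e-06), Cspg4 at 1.04 (adjusted p = 2.65e-08) and Tubb3 at 0.99 (adjusted p = 0.0571). Kcnj8 stood at -1.51 (adjusted p = 9.07e-06) and Notch3, also of pericytes, at -0.30 (adjusted p = 0.013) in that arm. The part of these cells in Thy1 was not tested. With antimiR-34a, members stood at 1 higher and 3 lower of 7, against 27.6% and 37.9% of all probes; quantile normalization moved the share of all calls that were higher from 42.1% to 56%.

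The macrophage markers diverged at P14. Of 15, 6 were higher and 7 lower with scrambled antimiR, where 28.2% of all probes were higher and 32.7% lower. Marco rose by 2.40 (SE 0.21, limma adjusted p = 4.88e-07), Mrc1 by 0.92 and Cd68 by 0.87, whereas Ear1 fell by 2.90 (SE 0.12, adjusted p = 8.22e-10), Siglecf by 2.73 (SE 0.13, adjusted p = 2.2e-09) and Fabp4, which adipocytes share, by 3.52 (by 2.86 without the 3 mice high in adipocyte markers). The log2 summed level of the list ran from 6.45 to 7.12 in 21% O2 and from 5.95 to 6.66 in 85% O2.

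In the uptake list at P14, 9 of 28 were higher and 10 lower with scrambled antimiR (median -0.15), in the droplet list 9 of 25 were higher and 7 lower (median -0.21), and among PPAR partners and targets 9 of 28 were higher and 6 lower (median 0.00). The share of all probes was 28.2% higher and 32.7% lower (median -0.07), and the counts of these lists lay not far from it. The transporter Slc27a6 rose by 1.55 (SE 0.24, limma adjusted p = 7.77e-05), Gm6484 (Angptl8, which acts on Lpl) by 0.94, Cideb by 1.10, Lpin2 by 0.81 and Mogat1 by at least 2.57-fold. Fabp1 was at least 79.8-fold lower in 85% O2 and the endothelial lipase Lipg at least 4.24-fold lower, each not well above background in any mouse in 85% O2. Cidec was at least 67.2-fold lower, Fitm1 at least 8.22-fold lower and Plin1 fell by 2.89 (SE 0.79, adjusted p = 0.00583), and all 3 mark adipocytes or muscle. Ppargc1a rose by 1.14, Cebpd by 1.11 and Ppard, the sister receptor of Pparg, by 1.02 (SE 0.08, adjusted p = 1.69e-07), while Ppara fell by 1.31 (SE 0.26, adjusted p = 0.000572). The adipocyte products Adipoq and Pck1, both in that list, were at least 41.7-fold and 21.8-fold lower. Without the 3 mice high in adipocyte markers these bounds were 24.3-fold and 10.8-fold, that of Cidec was 48.7-fold, and Plin1 fell by 2.20 (adjusted p = 0.000695). The uptake list then held 8 higher and 8 lower (median -0.04), the droplet list 9 and 7 (median -0.07), and the PPAR list 8 and 5 (median 0.03).

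In the lipofibroblast axis at P14, 7 of 27 genes were higher and 13 lower (median -0.10), where 28.2% of all probes were higher and 32.7% lower. Pdgfra fell by 2.46 (SE 0.28, limma adjusted p = 6.31e-06), Inmt, an enzyme of alveolar fibroblasts, by 2.34 (SE 0.23, adjusted p = 1.8e-06) and Slc7a10 by 1.47. Pthlh rose by 1.64 (SE 0.29, adjusted p = 0.000273) and Wnt2 by 1.74 (SE 0.16, adjusted p = 9.44e-07). Ces1g rose by 3.68 (SE 0.30, adjusted p = 3.02e-07), being well above background in 1 of 4 mice in 21% O2, and Pth1r differed by -0.07 (adjusted p = 0.489). Of the relatives and targets of Tcf21, 2 of 12 were higher and 6 lower, with Tcf15 at -2.09 (adjusted p = 8.69e-06), Twist2 at -1.65, Msc at least 3.59-fold lower and Id1 at 0.56. Myofibroblast genes gave 3 higher and 5 lower of 10. Hhip was among those higher (0.49, adjusted p = 0.00687), but the median of its 2 probes was -0.11. Acta2 rose by 0.94 (SE 0.15, adjusted p = 9.1e-05) and Tagln by 0.72, and elastin (Eln) fell by 1.20 (SE 0.24, adjusted p = 0.00068). Without the 3 mice high in adipocyte markers the lipofibroblast axis held 6 higher and 10 lower. The relatives and targets of Tcf21 then held 1 higher and 5 lower, and the myofibroblast genes 3 and 5.

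The response to oxygen differed between the ages for 3 members with scrambled antimiR. The P14 difference minus the P5 difference was -1.78 for Cd36 (SE 0.17, limma adjusted p = 3.28e-08), -0.57 for Tcf21 (SE 0.17, adjusted p = 0.00874) and -0.71 for Lpl (SE 0.27, adjusted p = 0.0391). The Lpl value did not pass on the upstream probe (-0.59, adjusted p = 0.0849) and was lost in 9 of 16 fits that left out 1 array. With antimiR-34a, Cd36 (-1.62, adjusted p = 1.29e-07), Tcf21 (-0.56, adjusted p = 0.00925), Lpl (-1.05, adjusted p = 0.00324) and Fabp5 (-0.79, adjusted p = 0.00016) passed, and Pparg stood at -0.60 (adjusted p = 0.0501) against -0.40 (adjusted p = 0.196) with scrambled antimiR. Without the 3 mice high in adipocyte markers these Pparg values were -0.12 and -0.22, and the Lpl difference with antimiR-34a was -0.63 (adjusted p = 0.0335). For Plin2, which rose at both ages, the differences between ages were 0.29 (95% CI -0.03 to 0.61) and 0.30 (95% CI -0.02 to 0.61). Thus 3 and 4 of 7 members were lower and 0 higher, where 22.8% and 22.1% of the 39163 probes tested were higher and 18% and 20.8% lower. Of all calls, 55.8% and 51.5% were higher, and 66.7% and 61.8% with normexp background correction.

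Between P5 and P14 in 21% O2 with scrambled antimiR, Cd36 rose by 1.61 (SE 0.12, limma adjusted p = 9.15e-11), a 3.06-fold change. Lpl rose by 0.86 (SE 0.19, adjusted p = 0.000644) and Pparg by 0.56 (SE 0.17, adjusted p = 0.00843), and without the 3 mice high in adipocyte markers these rises were 0.72 and 0.38. The Pparg call was lost without P14 scrambled antimiR mouse 1 alone (0.38, adjusted p = 0.059) and by the methods' t-test (adjusted p = 0.0998). Plin2 stood at -0.26 (adjusted p = 0.0504), with no overlap between its ages, and Tcf21, Thy1 and Fabp5 lay between -0.12 and 0.21. This was 3 of 7 members higher and 0 lower, against 27.7% and 23.8% of all probes. In mice with scrambled antimiR in 85% O2, Cd36 ended at 2.30 ± 0.14 (SD, n = 4) at P14, against 2.47 ± 0.28 at P5, while normoxic lungs moved from 1.97 ± 0.10 to 3.58 ± 0.15. Scan day followed age, so age and scan cannot be told apart.

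AntimiR-34a gave no call for any member against scrambled antimiR at either age or oxygen level. In 21% O2 at P5 the 7 differences lay between -0.21 (Tcf21) and 0.13, where 0.136% of probes were called; in 85% O2 at P5 between -0.12 and 0.28, where 0.0639% were called. In 21% O2 at P14 they lay between -0.06 and 0.28 (Pparg, adjusted p = 0.71), where 0% of probes were called and 4034 of 38458 had an unadjusted limma p under 0.05. In 85% O2 at P14 they lay between -0.38 and 0.31, where 2.67% were called. These shares moved widely with the processing: the 49 probes called in 21% O2 at P5 became between 1 and 410, the 23 in 85% O2 at P5 between 0 and 4318, and the 1025 in 85% O2 at P14 between 0 and 1170 under the alternatives that kept all arrays. Leaving out 1 mouse (scrambled antimiR mouse 4) in 21% O2 at P14 gave 1234 probes called and still no member. The 95% confidence intervals were widest for Pparg at P14, from -0.23 to 0.78 in 21% O2 and from -0.56 to 0.45 in 85% O2.

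The nearest to a call were Thy1 and Fabp5. Thy1 in 85% O2 at P5 read 1.03, 1.03, 0.83 and 0.98 with scrambled antimiR and 1.28, 1.10, 1.37 and 1.23 with antimiR-34a, without overlap, and differed by 0.28 (SE 0.08, limma adjusted p = 0.184). Fabp5 in 85% O2 at P14 read 5.10, 4.91, 4.87 and 4.63 with scrambled antimiR and 4.52, 4.65, 4.63 and 4.18 with antimiR-34a, and differed by -0.38 (SE 0.11, adjusted p = 0.0994). The test of whether antimiR-34a changed the response to oxygen called no member, with the largest values at 0.40 for Thy1 at P5 (SE 0.11, adjusted p = 0.237) and -0.43 for Fabp5 at P14 (SE 0.16, adjusted p = 0.255). Of all probes, 0.0556% and 0.0884% were called in these tests.

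**Figure D5:**
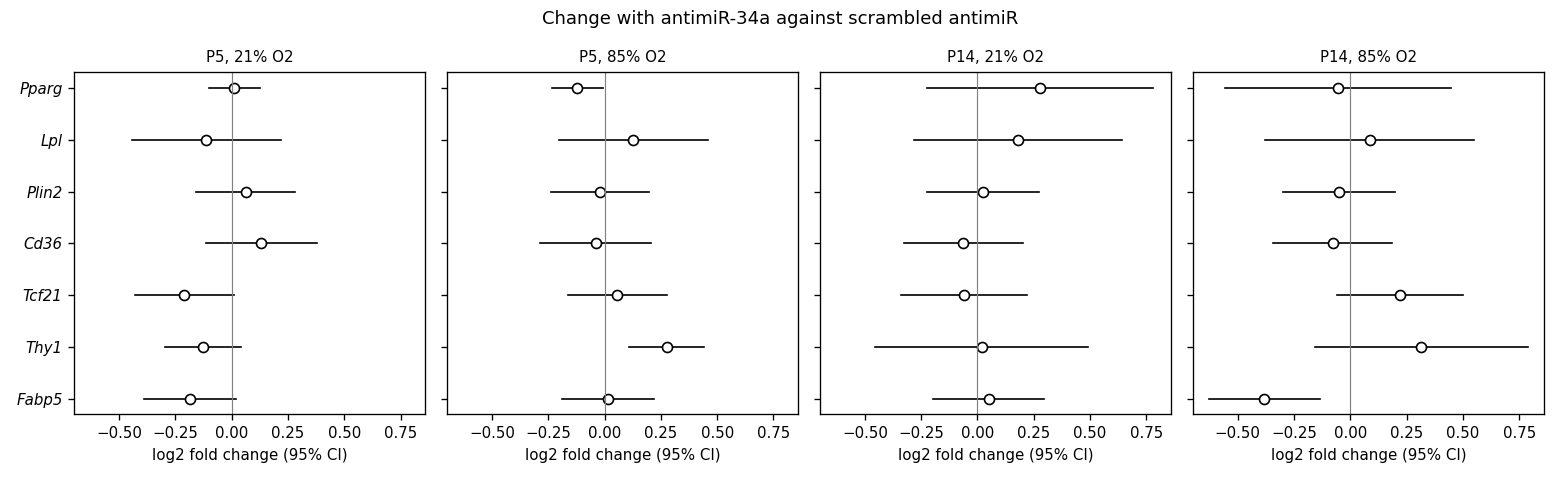
Log2 fold change of each member with antimiR-34a against scrambled antimiR at both ages and oxygen levels, with 95% confidence intervals (4 mice per group); all points are open because none passed an adjusted p of 0.05. The differences run from -0.38 for Fabp5 to 0.31 for Thy1, both in 85% O2 at P14.

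Within groups, the members did not move as 1 block from mouse to mouse. After each group mean was removed, Pearson's r over the 32 mice was highest for Pparg with Lpl (0.68, Spearman 0.41), Pparg with Thy1 (0.64, Spearman 0.59) and Plin2 with Cd36 (0.61, Spearman 0.48), and lowest for Tcf21 with Thy1 (-0.55, Spearman -0.58). Without the 2 mice farthest from the median of the first named gene, these were 0.49, 0.46, 0.30 and -0.51. All values of a mouse share 1 array and its scaling.

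The genes most like each member in this measure were sought among 18742 named genes. Pparg ran with Sucla2 (r = 0.95), Gpd1 (0.95) and Adig (0.92), the last being an adipocyte gene, and Lpl with Eci1 (0.84), the adipocyte droplet protein Plin1 (0.83) and Acadl (0.81), an enzyme of fatty acid oxidation. Spearman's rho was 0.77, 0.72 and 0.64 for Pparg and 0.79, 0.75 and 0.74 for Lpl. Without the 3 mice high in adipocyte markers, r over the other 29 fell to 0.60, 0.60 and 0.46 for Pparg and to 0.68, 0.65 and 0.60 for Lpl. Plin2 ran with the kinase Mapkapk2 (0.89) and with Ctsz (0.87) and Npc2 (0.86), which encode lysosomal proteins, and over the 8 group means its r with them was 0.97, 0.89 and 0.82. Fabp5 ran with 1700112E06Rik (0.85), Tyrobp (0.84), an adaptor of myeloid receptors, and Setmar (0.83). Tcf21 ran with Rcan3 (0.81), Tbc1d2b (0.79) and Bmyc (0.78), Thy1 with Aspa (0.83), 2700068H02Rik (0.79) and Cfhr2 (0.79), and Cd36 with Rit1 (0.78), AI413582 (0.77) and Tmem63b (0.77). Over the 8 group means, r ran from 0.77 to 0.93 for Pparg with its 3 genes, from -0.14 to 0.11 for Fabp5, from -0.21 to 0.04 for Cd36, from -0.36 to 0.91 for Lpl, from -0.21 to 0.93 for Thy1 and from -0.79 to 0.90 for Tcf21.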

How the data were processed

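Total RNA of 32 mouse lungs was hybridised to one-colour (Cy3) Agilent 8 x 60K arrays and scanned, and the authors deposited the spot intensity files of Agilent Feature Extraction 10.7.3.1 (mm9 annotation) and a table of log2 values, normalized between arrays by a method not given in the sources used here (its values correlated at 0.997 or more with those used here). The intensity column used was the processed signal, already background subtracted. Control and outlier spots (0.211%) were left out, log2 values were centred on the 75th percentile of each array, and spots of 1 probe were averaged. A probe was tested where all 4 arrays of any group in a fit had it well above background, with limma 3.58.1 (R 4.3.3): 1 mean per group, 16 arrays at P5 or P14 or all 32 for age, and Benjamini-Hochberg adjustment over all probes tested at 0.05. A gene's brightest tested probe stood for it, and within lists genes were named by up to 3 largest calls a direction. The members and lists were chosen with earlier results of these data known. Alternatives were normexp (offset 50), quantile normalization, the authors' log2 table, other filters, fewer groups, the methods' t-test, a replicate block, averaged Lpl probes and leaving out arrays. The number of arrays limits the precision. Whether arrays of a group came from separate litters was not given, and p-values measure the spread between these mice.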

Additional observations from a re-analysis of the deposited data

Results flagged for a closer look

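In groups of 4 mice, 9 of 64 sets of member values (8 probes in 8 groups) had a highest or lowest mouse whose gap to its nearest neighbour exceeded Dixon's 95% critical ratio of that gap to the group's range; chance alone flags about 1 in 20 groups. Of these, 4 lay in P5 85% O2 with scrambled antimiR: mouse 1 was lowest for Plin2 (ratio 0.887), Fabp5 (0.839) and Cd36 (0.972), and mouse 4 was highest for Tcf21 (0.877). With antimiR-34a in 85% O2 at P5, mouse 3 was lowest for Tcf21 (0.909) and mouse 1 highest on the upstream Lpl probe (0.914). The others were Thy1 in P5 21% O2 scrambled antimiR mouse 4 (0.871), the mouse high in skeletal muscle markers, Pparg in P14 21% O2 scrambled antimiR mouse 1 (0.831), a mouse with high adipocyte markers, and Plin2 in P14 85% O2 antimiR-34a mouse 2 (0.880).

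The response to oxygen differed between P5 and P14 by limma's interaction test for Cd36 (-1.78 with scrambled antimiR and -1.62 with antimiR-34a), Tcf21 (-0.57 and -0.56), Lpl (-0.71 and -1.05, and -1.01 on the upstream probe with antimiR-34a) and Fabp5 (-0.79 with antimiR-34a). With scrambled antimiR the upstream Lpl probe did not pass (-0.59, adjusted p = 0.0849). The Lpl call of -0.71 was lost in 9 of 16 fits that left out 1 array. Of these members, Cd36 was called higher in 85% O2 at P5 and lower at P14 in both arms.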

How the results depend on the processing

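The number of members called moved by over 1.5 times under 2 alternatives. The methods' t-test called 2 members at P5 with scrambled antimiR against 4 by limma (Plin2 adjusted p = 0.0551, Cd36 0.0808). The share of all probes that the t-test called there is not given, so this loss cannot be set against it. Without the 3 P14 arrays high in adipocyte markers, an alternative chosen after seeing the data, 5 members were called with scrambled antimiR and 7 with antimiR-34a, where 24.9% and 22.9% of all probes were higher and 30% and 34.6% lower. Those 3 arrays held the highest Pparg and Lpl of their groups in 21% O2, so the calls gained for these genes are no separate support. With 1 array left out, members called in 85% O2 numbered 4 to 5 at P5 and 3 to 3 at P14 with scrambled antimiR, and 5 to 6 and 4 to 5 with antimiR-34a; the differences between ages gave 2 to 3 and 4 to 5, age in 21% O2 gave 2 to 4, and the 6 antimiR comparisons gave 0 to 0. Signs turned only among values that did not pass the test. Pparg at P14 with antimiR-34a went from 0.00 to -0.0189 (normexp), -0.0444 (quantile) and -0.0441 (authors' values), and between -0.1949 and 0.1938 with 1 array left out. The antimiR difference of Pparg in 21% O2 at P14 went from 0.28 to -0.0196 without the 3 arrays. With 1 array left out, Tcf21 ran from -0.0663 to 0.0752 for age and from -0.0077 to 0.1162 for oxygen at P5 with antimiR-34a, and Fabp5 from -0.0934 to 0.0642 at P14 with scrambled antimiR. The cause was not tested. Without a filter on dim probes, Cd36 at P5 with antimiR-34a (adjusted p = 0.0576) and the Lpl difference between ages with scrambled antimiR (0.0543) lost their calls.

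Over all probes, the antimiR counts were the least stable: 49 called in 21% O2 at P5 became 410 with normexp, 408 with only the compared groups, 88 with quantile normalization, 78 with the authors' values, 19 without a filter and 1 by the t-test, and the share higher went from 87.8% to 62.5% with quantile normalization. In 85% O2 at P5, 23 became 40 with normexp, 4318 without a filter, and 0 with only the compared groups and by the t-test, and the share higher went from 69.6% to 50% with quantile normalization. In 85% O2 at P14, 1025 became 334 with normexp, 577 and 580 with quantile normalization and the authors' values, 501 without a filter, 74 with only the compared groups and 0 by the t-test. In 21% O2 at P14, 0 became 2 without a filter and 15 without the 3 arrays. The interaction at P14 went from 34 to between 0 and 65, and at P5 from 20 to between 4 and 32. Quantile normalization moved the median of all probes for oxygen at P14 with antimiR-34a from -0.12 to 0.08, and normexp moved that with scrambled antimiR from -0.07 to 0.10. Member calls that changed under such scaling were the upstream Lpl probe at P14 (lost), the Pparg difference between ages with antimiR-34a and Plin2 with age (both gained).

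Groups share replicate numbers, but same-numbered mice correlated between -0.3544 and 0.4991 in their deviations, 0 to 6 of 8 samples correlating best with their own number, so they share only a number. With the replicate block, the Pparg difference between ages with antimiR-34a (-0.6001, adjusted p = 0.0467) and Plin2 with age (-0.2592, adjusted p = 0.0499) passed, and the probes called for antimiR-34a at P5 fell to 7 in 21% O2 and 2 in 85% O2. A slide block could not be fitted beside the group means, since each slide held 1 age and oxygen level. Both antimiR arms of an age and oxygen level shared a slide, so every antimiR-34a difference is a within-slide value. The fits with only the compared groups also take the spread from that slide alone. The 4 arrays per group limit the precision to the intervals given.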
